A study of Mus musculus with 8 samples.

Results

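Noncanonical Polycomb complex PRC1.6 was examined through 9 genes, Pcgf6, Mga, Max, L3mbtl2, E2f6, Rybp, Ring1, Rnf2 and Wdr5, chosen by name as subunits of the complex that silences germline genes in embryonic stem cells. They are 9 of 36920 genes in the count table, each matched to 1 Ensembl identifier. All 9 passed the filter on low counts, which left 19173 genes tested. RNA was sequenced from the mouse embryonic stem cell line R1, kept in serum with the cytokine LIF. ML-792 blocks the SUMO E1 enzyme, which activates the small protein SUMO before it is attached to other proteins. The 8 libraries form 4 groups of 2. D3 closed a first 48 h exposure to ML-792 and D1, a control, preceded it. D10 closed a second 48 h exposure and D8, a control, preceded it, 5 days after D3. D8 cells had therefore been through 1 exposure. The dose is labelled 2.5 mM. No untreated library of D3 or D10 was analysed here, so ML-792 and the 48 h of further culture cannot be told apart. A time tag dates D1 replicate 2 to day 0, but its title says D1, which was followed. All cells are of 1 line, and no label says that replicates are separate cultures, so the p-values reflect no more than library-to-library spread, which may be technical.

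PRC1 complexes attach ubiquitin to histone H2A through a ring finger protein, RING1 (also RING1A) or RNF2 (RING1B), which works as a dimer with a protein of the PCGF family. The PCGF protein decides which other subunits join, and PCGF6 defines PRC1.6. In that complex RYBP or its paralog YAF2 stimulates the ubiquitin ligase, MGA with MAX and E2F6 with a DP protein bind DNA at E-boxes and E2F motifs, L3MBTL2 contributes MBT domains, and WDR5 is a scaffold protein shared with the MLL and SET1 histone methyltransferases. In mouse embryonic stem cells PRC1.6 is known for holding down meiosis and germline genes. MGA, L3MBTL2 and PCGF6 act mainly there, whereas RING1, RNF2, RYBP, MAX and WDR5 also serve in other complexes.

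All are protein-coding genes in the GENCODE M21 annotation of mm10. Pcgf6 (ENSMUSG00000025050) lies at chr19:47033617-47050906 on the minus strand, Mga (ENSMUSG00000033943) at chr2:119897228-119969581 on the plus strand and Max (ENSMUSG00000059436) at chr12:76937269-76962201 on the minus strand. L3mbtl2 (ENSMUSG00000022394) lies at chr15:81663889-81688315 (plus), E2f6 (ENSMUSG00000057469) at chr12:16810963-16839742 (plus) and Rybp (ENSMUSG00000072872) at chr6:100228565-100287485 (minus). Ring1 (ENSMUSG00000024325) lies at chr17:34020792-34024680 (minus), Rnf2 (ENSMUSG00000026484) at chr1:151458004-151500955 (minus) and Wdr5 (ENSMUSG00000026917) at chr2:27515157-27536535 (plus). Mga has the longest exonic sequence, 15340 bp in 24 merged exons, and Ring1 the shortest, 3243 bp in 5. Exons of L3mbtl2 share 1023 of 5945 bp with Chadl on the opposite strand, and exons of Rnf2 share 158 of 4127 bp with Trmt1l. The strand setting of the counting is not given in the sources used here, so part of those reads may belong to the partner gene.

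RefSeq's promoter table (GRCm38.p6, 250 bases before to 50 bases after the start site) holds 8 of the 9 genes, all but Rybp. Promoters of the members with a called change with ML-792, Pcgf6 (chr19:47050857-47051156, minus strand) and Wdr5 (chr2:27514897-27515196, plus strand), are shown 5′ to 3′ with the bases from the start site onward in capitals. That of Max (chr12:76962199-76962498, minus strand) is shown because it holds an E-box, the CACGTG element that MGA and MAX bind, in capitals at position -3 from the start site.

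Pcgf6: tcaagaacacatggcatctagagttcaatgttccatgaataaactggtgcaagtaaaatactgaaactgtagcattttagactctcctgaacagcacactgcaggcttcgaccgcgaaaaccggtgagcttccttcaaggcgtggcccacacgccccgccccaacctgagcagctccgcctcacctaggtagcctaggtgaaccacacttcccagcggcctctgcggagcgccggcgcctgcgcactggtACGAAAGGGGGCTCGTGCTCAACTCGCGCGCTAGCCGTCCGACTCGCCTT

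Wdr5: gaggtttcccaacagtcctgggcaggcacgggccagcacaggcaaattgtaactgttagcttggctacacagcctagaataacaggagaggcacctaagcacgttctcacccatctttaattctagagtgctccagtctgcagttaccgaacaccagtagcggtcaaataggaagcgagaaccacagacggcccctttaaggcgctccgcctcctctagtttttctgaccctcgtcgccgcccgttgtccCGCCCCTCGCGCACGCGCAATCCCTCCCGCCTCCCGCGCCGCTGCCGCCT

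Max: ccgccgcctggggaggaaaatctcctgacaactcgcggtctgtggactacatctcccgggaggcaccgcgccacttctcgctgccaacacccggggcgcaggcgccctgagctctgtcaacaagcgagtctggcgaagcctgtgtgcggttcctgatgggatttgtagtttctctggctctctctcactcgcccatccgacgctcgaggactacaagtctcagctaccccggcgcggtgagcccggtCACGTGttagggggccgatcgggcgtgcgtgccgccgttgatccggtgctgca

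An E-box, CACGTG, which reads the same on both strands, was found in the promoter of 1 of the 8 members, Max. Of all 27025 gene symbols of the table, 8.09% held it in a promoter. The E2F motif GCGGGAA, searched on both strands, was in 0 of the 8 and in 5.29% of all gene symbols.

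Reads in genes numbered 21040992 to 40835518 per library. Of 8 embryonic stem cell markers, 2 were lower at D3 than at D1 and 6 were lower at D10 than at D8 by edgeR's quasi-likelihood test at an adjusted p under 0.05, where 5.1% and 7.65% of all tested genes were lower. Their summed level was 3174 to 4277 CPM (edgeR's normalised read count) in the 4 ML-792 libraries and 5838 to 6568 CPM in the 4 control libraries. The control groups differed in endoderm markers, of which 4 of 6 were higher at D8 than at D1, where 0.141% of all tested genes were higher. Their sum was 14.3 to 18.4 CPM at D1, 19.3 to 29.7 CPM at D3, 96.0 to 144.5 CPM at D8 and 74.0 to 79.1 CPM at D10. Summed fibroblast markers, 5 of 8 tested, ran from 6.12 to 11.7 CPM with ML-792 and from 9.61 to 19.7 CPM in controls. Trophoblast markers summed to 20.8 to 35.8 CPM with ML-792 and 29.3 to 61.9 CPM in controls, and neural and mesoderm markers to 22.3 to 31.6 CPM and 21.5 to 33.3 CPM. The part of these shifts in the results below was not tested. In such bulk libraries, fewer cells that express a gene and less RNA per cell cannot be told apart.

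All 9 genes were expressed in every library, from 222 reads for Ring1 to 14792 reads for Mga in the lowest and highest library. Per exonic length, and averaged over the 8 libraries, Wdr5 had the highest level, 86.2 RPKM, with a range of 61.5 to 108 RPKM, and Rnf2 followed with 59.4 RPKM and an overlapping range. These levels exceeded those of 97.2% and 95.6% of the 19173 tested genes. L3mbtl2 at 25.7, Mga at 22.6, Max at 18.9, Rybp at 15.8 and Pcgf6 at 15.4 RPKM formed a middle group, each with a range over the libraries that overlapped the next. E2f6 averaged 6.90 RPKM, below every library of the middle group. Ring1 was lowest at 3.45 RPKM, with a range of 2.75 to 4.01 RPKM, near the middle of all tested genes (53.5%).

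Levels per length of paralogs and partners placed the members among their alternatives. Rnf2 exceeded Ring1 in every library, by 16.7 to 19.0 times in the ML-792 libraries and 9.35 to 22.8 times in the control libraries. Rybp exceeded Yaf2 by 1.54 to 2.73 times with ML-792 and 1.85 to 3.17 times in controls, so neither ratio separated the treatments. Among the genes of the PCGF family, Pcgf6 had the highest mean, 15.4 RPKM, ahead of Pcgf3 at 10.4, Bmi1 at 5.69, Pcgf1 at 5.42, Pcgf2 at 4.51 and Pcgf5 at 1.52 RPKM. The lowest library of Pcgf6, 13.2 RPKM, lay below the highest of Pcgf3, 13.5 RPKM. In the 4 control libraries Pcgf6 averaged 17.0, Pcgf3 8.7 and Bmi1 3.75 RPKM, and with ML-792 13.9, 12.1 and 7.64 RPKM. Pcgf1, Pcgf2 and Pcgf5 averaged 5.97, 4.3 and 1.7 RPKM in controls and 4.88, 4.73 and 1.3 RPKM with ML-792. Of the DP partners of E2F6, Tfdp1 averaged 65.2 RPKM and Tfdp2 7.64 RPKM.

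**Figure D1:**
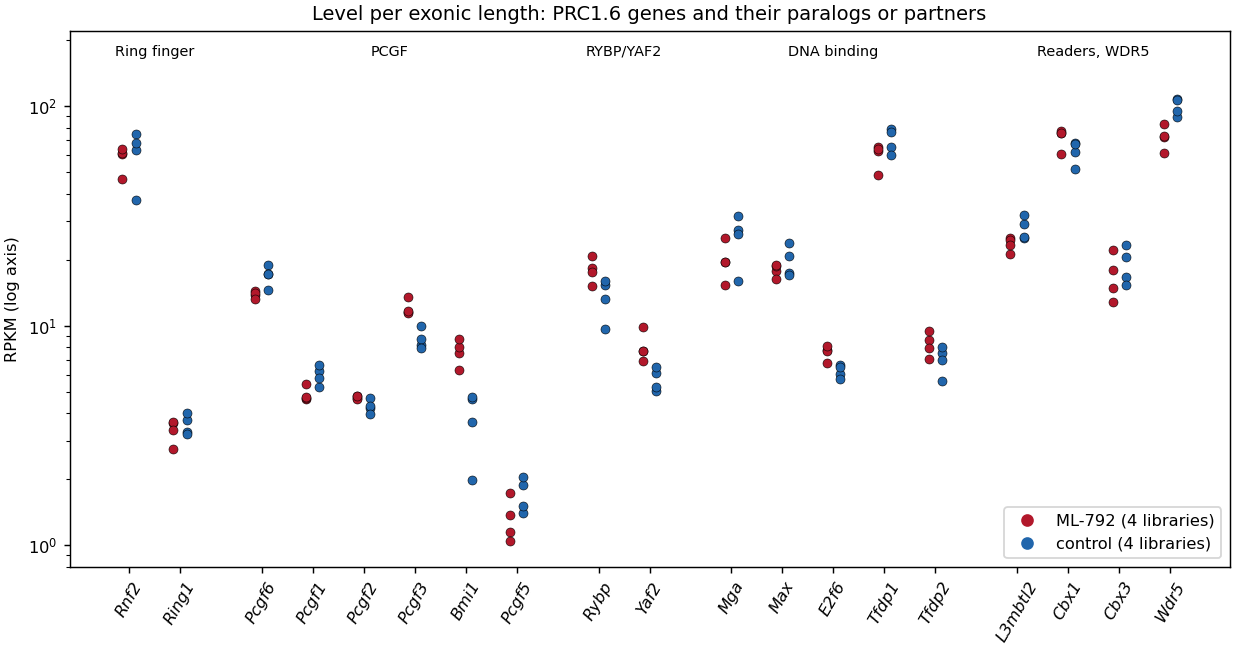
Level per exonic length (RPKM, log axis) of the PRC1.6 genes and of paralogs or partners, grouped by role, with 1 point per library, ML-792 left of control. Rnf2 lies above Ring1 in every library, and Wdr5 has the highest mean at 86.2 RPKM.

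Most transcripts of the complex were not called with ML-792 by edgeR's quasi-likelihood test with TMM scaling. Wdr5, the scaffold shared with the methyltransferases, fell at D10, to 0.67 times its level at D8, and in all 4 ML-792 libraries taken against all 4 controls, to 0.73 times. Pcgf6, the subunit that defines the complex, fell to 0.82 times in the 4 against 4 comparison, a call lost in 11 of 17 alternative fits. The other 7 members were not called by that test, although alternative fits called some of them, as given below, and of all 9 only E2f6 and Rybp had estimates above 0 over 4 against 4. In D3 against D1, 0 of the 9 members were called by edgeR's quasi-likelihood test (1 at an unadjusted p under 0.05, 0 called by DESeq2), where 13% of all tested genes were (7.92% higher and 5.1% lower). In D10 against D8, 1 member was called, Wdr5, where 16.9% of all genes were (9.27% higher and 7.65% lower). In the 4 against 4 comparison 2 were called, both lower, where 28.7% of all genes were called and 13.4% were lower. A count of 2 in 9 is near these backgrounds and is no result about the members as a group. All 3 comparisons draw on the same libraries and are not independent of each other.

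**Figure D2:**
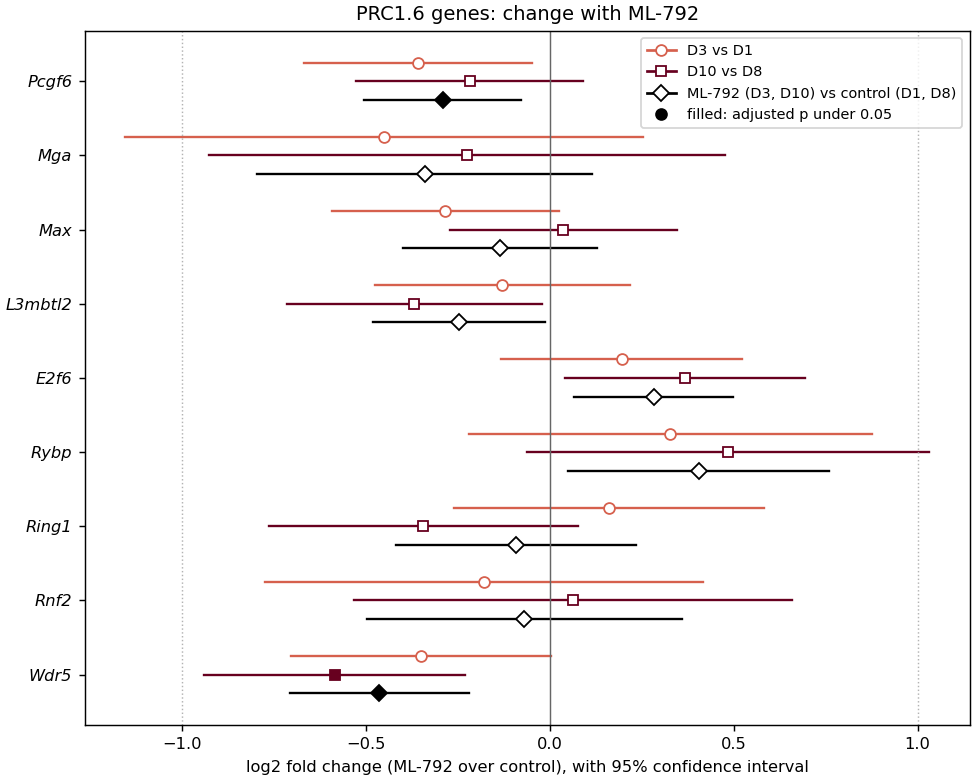
Log2 fold change of each PRC1.6 gene (x axis, ML-792 over control) with its 95% confidence interval, for D3 vs D1, D10 vs D8 and the 4 ML-792 against the 4 control libraries. Filled symbols mark an adjusted p under 0.05, which Wdr5 has at D10 vs D8 and Wdr5 and Pcgf6 have in the comparison of 4 against 4, and dotted lines mark a log2 change of 1.

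The core subunit Pcgf6 had 72.2 and 69.2 CPM at D3 against 95.1 and 86.3 CPM at D1. It had 71.1 and 66.4 CPM at D10 against 86.8 and 73.1 CPM at D8. All 4 ML-792 libraries lay below all 4 controls. The log2 fold change was -0.36 ± 0.14 (SE, edgeR's quasi-likelihood test, adjusted p = 0.125) at D3 against D1 and -0.22 ± 0.14 (adjusted p = 0.311) at D10 against D8. Over 4 against 4 libraries it was -0.29 ± 0.10 (adjusted p = 0.045), with means of 69.7 ± 2.54 CPM with ML-792 and 85.3 ± 9.09 CPM in controls (SD, n = 4). That call was lost in 11 of 17 alternative fits of edgeR or DESeq2, with an adjusted p of up to 0.0962, while the estimate stayed between -0.57 and -0.27. The call was lost with RLE size factors, no filter on low counts, a stricter filter and the pooled contrast of the 4-group fit. It was lost without D1 replicate 1 (0.0728), D1 replicate 2 (0.0962), D3 replicate 1 (0.0768), D3 replicate 2 (0.0945), D8 replicate 1 (0.0886), D10 replicate 1 (0.0814) and D10 replicate 2 (0.0844), each an adjusted p.

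Of the ring finger ligases, Rnf2 had 249.6 and 253.1 CPM at D3 against 307.3 and 262.0 CPM at D1. It had 262.6 and 192.2 CPM at D10 against 280.5 and 154.7 CPM at D8. The D3 libraries lay below those of D1, and the D10 and D8 libraries overlapped. Its log2 fold changes were -0.18 ± 0.26 (adjusted p = 0.706) and 0.06 ± 0.26 (adjusted p = 0.893), by the same test. The second turned to -0.34 without D8 replicate 2, to -0.17 without D10 replicate 1 and to -0.43 after the correction for GC content and length described below. Ring1, the minor paralog by transcript level, had 11.8 and 11.8 CPM at D3 against 10.6 and 10.5 CPM at D1. It had 10.9 and 8.91 CPM at D10 against 12.0 and 13 CPM at D8. The libraries did not overlap in either pair, and they were higher at D3 but lower at D10 than their controls. Neither change was called, at 0.16 ± 0.19 (adjusted p = 0.622) and -0.34 ± 0.18 (adjusted p = 0.24) by edgeR. The difference between these responses, -0.51 ± 0.26, had the widest gap from 0 among the 9 members and was not called (adjusted p = 1).

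Rybp, which stimulates the ligase, had 87.3 and 83.0 CPM at D3 against 72.9 and 62.8 CPM at D1. It had 99.1 and 71.6 CPM at D10 against 75.9 and 46.1 CPM at D8. The D3 libraries lay above D1, while D10 replicate 2 lay below D8 replicate 1. The log2 fold changes were 0.33 ± 0.24 (adjusted p = 0.42) and 0.48 ± 0.24 (adjusted p = 0.206), and 0.40 ± 0.16 (adjusted p = 0.0837) over 4 against 4. At D10 against D8 its interval, -0.06 to 1.03, reached past a 2-fold difference. That estimate was 0.88 without D8 replicate 1 (adjusted p = 0.0211 by edgeR), 0.14 when D8 replicate 2 was left out, 0.24 when D10 replicate 1 was, and 0.14 after the correction for GC content and length described below.

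Mga, the scaffold that binds E-boxes, had 300.8 and 298.9 CPM at D3 against 417.4 and 402.1 CPM at D1. It had 387.5 and 236.3 CPM at D10 against 483.9 and 245.0 CPM at D8. The D3 and D1 libraries did not overlap, while the later groups did, with replicate 2 low in both. The log2 fold change was -0.45 ± 0.31 (adjusted p = 0.387) at D3 against D1, with an interval of -1.15 to 0.25, and -0.22 ± 0.31 (adjusted p = 0.659) at D10 against D8. The second value turned to 0.34 without D8 replicate 1 and to 0.05 without D10 replicate 2. Max, its DNA-binding partner, had 64.0 and 67.5 CPM at D3 against 85.5 and 74.6 CPM at D1. It had 68.4 and 58.9 CPM at D10 against 62.5 and 61.6 CPM at D8. D1 was the high group, and D3, D8 and D10 lay close together. Its log2 fold changes were -0.28 ± 0.14 (adjusted p = 0.214) and 0.04 ± 0.14 (adjusted p = 0.88), the second lying near 0 on either side in the alternative fits.

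E2f6, a repressor of the E2F family, had 38.4 and 43.9 CPM at D3 against 34.2 and 37.7 CPM at D1. It had 43.4 and 45.8 CPM at D10 against 36.8 and 32.4 CPM at D8. All 4 ML-792 libraries lay above all 4 controls. The log2 fold change was 0.20 ± 0.14 (adjusted p = 0.422), 0.37 ± 0.14 (adjusted p = 0.117) and, over 4 against 4, 0.28 ± 0.10 (adjusted p = 0.0519) by edgeR's quasi-likelihood test. The last passed the threshold in 5 of 17 alternative fits, among them DESeq2 at 0.0193, so it lies at the edge of a call.

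L3mbtl2, the MBT-domain protein, had 148.9 and 145.9 CPM at D3 against 148.8 and 173.4 CPM at D1. It had 126.0 and 138.3 CPM at D10 against 150.5 and 190.7 CPM at D8. The first pair of groups overlapped and the second did not. The log2 fold change was -0.13 ± 0.15 (adjusted p = 0.635) and -0.37 ± 0.15 (adjusted p = 0.136). The second was -0.22 without D8 replicate 2, -0.53 without D8 replicate 1 (adjusted p = 0.0313 by edgeR) and -0.14 after the correction for GC content and length.

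Wdr5 had 260.2 and 297.5 CPM at D3 against 322.3 and 388.5 CPM at D1. It had 221.1 and 263.8 CPM at D10 against 341.8 and 385.1 CPM at D8. All 4 ML-792 libraries lay below all 4 controls. The log2 fold change was -0.35 ± 0.16 (adjusted p = 0.182, interval -0.70 to 0.00) at D3 against D1 and -0.58 ± 0.16 (adjusted p = 0.0351, interval -0.94 to -0.23) at D10 against D8. Over 4 against 4 it was -0.46 ± 0.11 (adjusted p = 0.0105), with means of 260.6 ± 31.3 CPM with ML-792 and 359.4 ± 32.6 CPM in controls (SD, n = 4). The pooled call held in all 17 alternative fits, between -0.55 and -0.36. The D10 call was lost when 1 library was left out in 5 cases, with an adjusted p of 0.0519 when that was D1 replicate 2, 0.062 or 0.0619 for D3 replicates 1 and 2, 0.0829 for D8 replicate 2 and 0.207 for D10 replicate 1. The difference between its responses was -0.23 ± 0.22 (adjusted p = 1), so the call at D10 alone does not show a larger fall there.

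**Figure D3:**
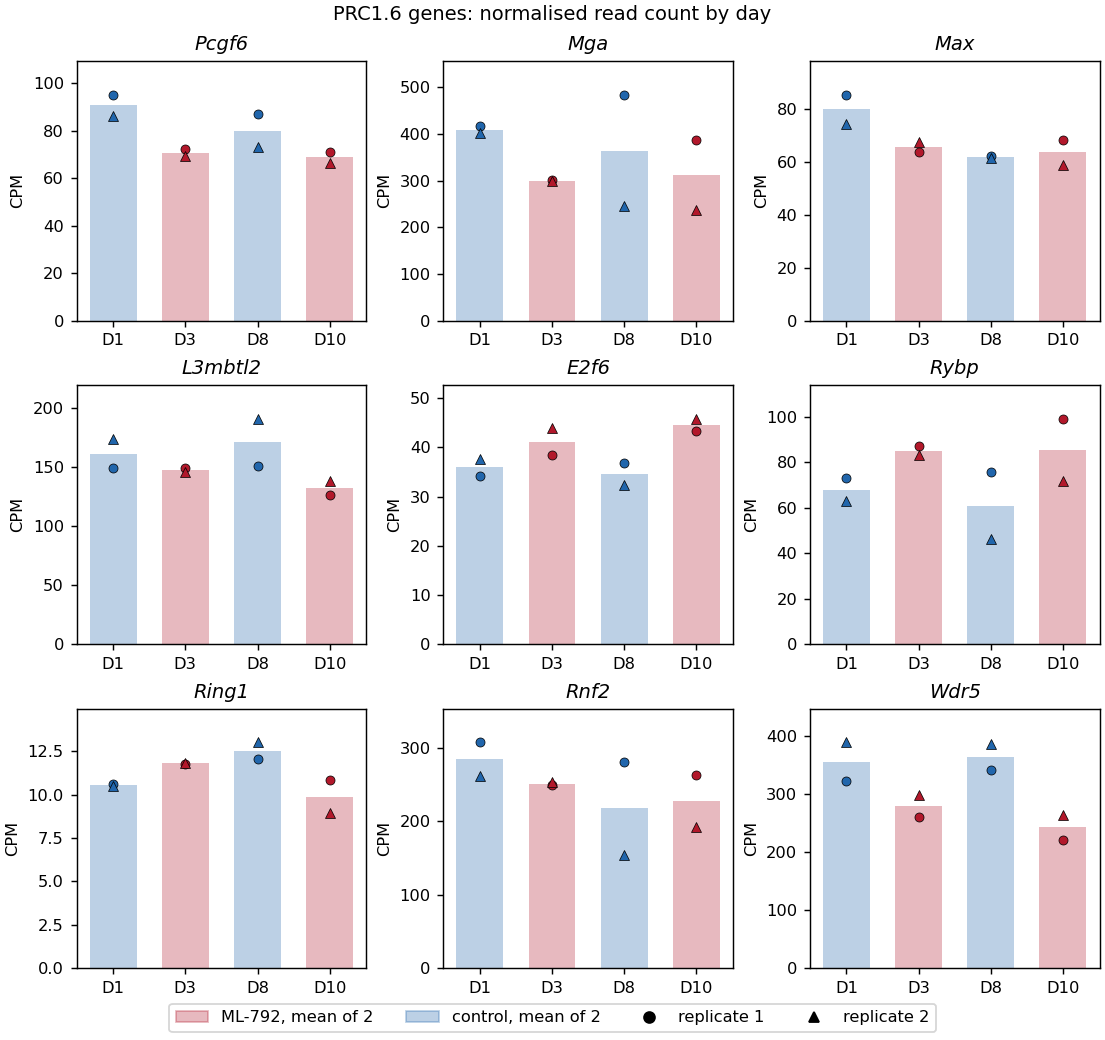
Normalised read count (CPM, y axis from 0) of each PRC1.6 gene at D1, D3, D8 and D10, with 1 point per library and bars at the mean of 2. The ML-792 libraries of Wdr5 and Pcgf6 all lie below, and those of E2f6 above, the 4 control libraries.

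The libraries of the 9 members often did not overlap between groups, which is common with 2 libraries a group. In D3 against D1, 5 members were lower and 3 higher in both libraries, where 64.8% of all tested genes did not overlap, 32% lower and 32.8% higher. In D10 against D8 it was 4 lower and 1 higher, where 54.9% did not overlap, 27.6% lower and 27.2% higher. Over 4 against 4 libraries it was 2 lower (Wdr5 and Pcgf6) and 1 higher (E2f6), where 30.9% of all genes did not overlap, 14.9% lower and 16.1% higher. At D8 against D1 it was 1 lower (Max) and 1 higher (Ring1), where 41.9% did not overlap, 20.3% lower and 21.6% higher. For 8 of the 9 members the 95% interval lay within a 2-fold difference in each exposure, the exceptions being Mga at D3 and Rybp at D10, and all 9 lay within it over 4 against 4.

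D8 was compared with D1 to describe the members after 1 exposure and 5 further days. In that comparison 0 of the 9 were called by edgeR's quasi-likelihood test (1 at an unadjusted p under 0.05, 0 by DESeq2), where 0.177% of all genes were called. The endoderm markers had a median log2 fold change of 3.01 in the same comparison, and their part in the values of the members was not tested. The estimates ran from -0.39 ± 0.26 for Rnf2 to 0.25 ± 0.18 for Ring1, and all 9 intervals lay within a 2-fold difference. Max had 62.5 and 61.6 CPM at D8 against 85.5 and 74.6 CPM at D1 (-0.37 ± 0.14, adjusted p = 0.338). Wdr5 averaged 363.5 ± 30.6 CPM at D8 and 355.4 ± 46.8 CPM at D1 (SD, n = 2). Pcgf6 averaged 79.9 ± 9.72 CPM at D8 and 90.7 ± 6.22 CPM at D1. Between the second and the first exposure, no response of a member differed by the test of the difference (0 called by edgeR, 0 at an unadjusted p under 0.05 and 0 by DESeq2), where 0% of all genes were called.

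Replicates of the members differed along with the GC content of their transcripts. In D8, replicate 2 had 0.506 times the CPM of replicate 1 for Mga, 0.552 times for Rnf2 and 0.607 times for Rybp, whose longest transcripts have 42.2%, 39.5% and 43.6% GC. L3mbtl2, at 54.7% GC, had 1.27 times and Wdr5, at 51.5%, 1.13 times. Over the 9 members the Spearman rho between that ratio and GC content was 0.7 in D1, 0.2 in D3, 0.933 in D8 and 0.633 in D10, as a description of points that share 1 pair of libraries each. Across all tested genes the deviation of a library from the mean rose most with GC content in D8 replicate 2 (rho 0.546) and fell most in D10 replicate 1 (-0.336) and D3 replicate 1 (-0.33). It was -0.284 in D3 replicate 2, -0.063 and 0.133 in D1 replicates 1 and 2, 0.064 in D8 replicate 1 and 0.042 in D10 replicate 2. Both D3 libraries lay below both D1 libraries, and each D10 library below the D8 library of its number. The GC trend therefore also runs along the ML-792 comparisons.

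**Figure D4:**
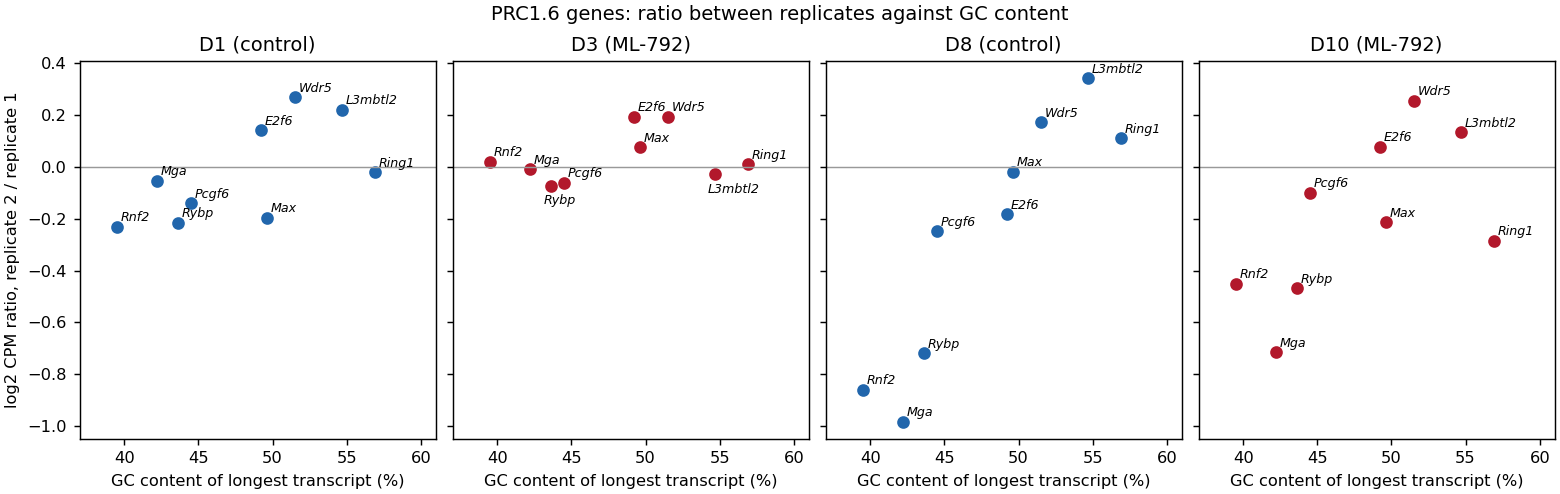
Log2 ratio of replicate 2 over replicate 1 in CPM (y axis) against the GC content of the longest transcript in percent (x axis), 1 panel per group and 1 point per PRC1.6 gene. The ratio climbs with GC content in D8 (rho 0.933) and hardly in D3 (rho 0.2). Each panel compares replicates within a group and does not show a GC trend between ML-792 and control.

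Which members were called depended on whether these trends were corrected. A correction of every library for GC content and length was also run. With it 4 members, Pcgf6, Mga, Rnf2 and Wdr5, were called lower at D3, at D10 and over 4 against 4. Over 4 against 4, Mga then stood at -0.77 and Rnf2 at -0.48. Of all tested genes 23.5% were called with it at D3, 25.3% at D10 and 39.2% over 4 against 4. Those called lower numbered 2685, 2954 and 4717 of 19173. That correction moved the median of all genes to -0.12 at D3 and D10 and -0.13 over 4 against 4. The values are therefore read relative to that median, while the calls were tests against 0. A correction chosen after seeing the data, with its trend taken from genes of at least 10 CPM, moved that median to 0.03 over 4 against 4. There it called Pcgf6, Mga, Rnf2 and Wdr5 lower and E2f6 higher, where 32.7% of all tested genes were called. The part of GC content in the values of Mga and Rnf2 was not tested. Wdr5 was called lower in the 4 against 4 comparison with and without either correction.

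The 9 partner genes outside the members include the HP1 proteins, deacetylases and the G9a and GLP methyltransferases found with PRC1.6. At D3 against D1, 0 of 9 were called, where 13% of all tested genes were. At D10 against D8 1 was, higher, where 16.9% of all tested genes were called. The gene called at D10 was Yaf2, the paralog of Rybp, with 14.4 and 18.4 CPM at D10 against 9.45 and 9.85 CPM at D8 (0.77 ± 0.19, edgeR adjusted p = 0.0272), a call lost in 9 of 16 alternative fits. Over 4 against 4 libraries 2 of the 9 rose and 1 fell, near the 28.7% of all tested genes called there, so the counts are no result about the partners as a group. Yaf2 rose in that comparison by 0.49 ± 0.15 (edgeR adjusted p = 0.0362). The paired methyltransferase genes were called in opposite directions over 4 against 4 libraries, and neither was called at D3 or at D10. Ehmt1, which encodes GLP, rose by 0.35 ± 0.08 (adjusted p = 0.00988) and Ehmt2, which encodes G9a, fell by 0.53 ± 0.14 (adjusted p = 0.0185) over 4 against 4. The ratio of Ehmt2 to Ehmt1 per length was 1.70 to 2.11 with ML-792 and 3.09 to 4.24 in controls, with no overlap. Tfdp1, Tfdp2, Cbx1, Cbx3, Hdac1 and Hdac2 were called in none of these comparisons.

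Some genes of neighbouring complexes changed more than any member did, in lists read from the same edgeR fit.  Of 25 other PRC1 subunits, 2 rose and 3 fell at D3, where 13% of all tested genes were called, and 1 rose and 3 fell at D10, where 16.9% were. These shares are near the background. Phc2, of the polyhomeotic family, rose at D3 (1.10 ± 0.21, adjusted p = 0.0133) and stood at 0.62 ± 0.21 (adjusted p = 0.0772) at D10. Cbx6, a chromodomain subunit of canonical PRC1, fell in both exposures (-0.69 ± 0.15 and -0.81 ± 0.15). Cbx2, of the same family, fell at D3 (-0.85 ± 0.19, adjusted p = 0.0223) and stood at -0.42 ± 0.19 (adjusted p = 0.164) at D10, and Fbrsl1 stood at -0.16 ± 0.14 (adjusted p = 0.488) at D3 and fell at D10 (-0.78 ± 0.14, adjusted p = 0.0074). Of 12 PRC2 subunits 0 rose and 1 fell in each exposure, Phf19, which recruits PRC2, with 4.46 and 6.76 CPM at D3 against 9.71 and 13.7 CPM at D1 and 8.31 and 7.11 CPM at D10 against 17.4 and 21.5 CPM at D8.

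MAX and E2F6 each belong to families with other outputs. Of 11 genes of the MAX network, 2 rose and 2 fell at D3 (13% of all genes called) and 3 rose and 3 fell at D10 (16.9%). Mxd4, a repressor that pairs with MAX, rose (1.34 ± 0.29 and 1.26 ± 0.29), as did Mlxip (1.04 ± 0.17 and 0.64 ± 0.17), while Mxd3 (-0.71 ± 0.19 and -0.98 ± 0.19) and Mxi1 (-0.83 ± 0.17 and -0.65 ± 0.17) fell. Of 7 other E2F genes 0 rose and 1 fell in each exposure, E2f8, an atypical repressor of the family (-0.71 ± 0.14 and -0.76 ± 0.14). Of 15 tested genes of the methyltransferase complexes that share WDR5, 0 rose and 2 fell at D3 and 1 rose and 2 fell at D10, near the same 13% and 16.9%. Those that fell were Rbbp5 (-0.50 ± 0.12 and -0.57 ± 0.12) and Dpy30 (-0.61 ± 0.13 and -0.45 ± 0.13), which form the core of these enzymes together with WDR5 and ASH2L. Ash2l rose at D10 (0.43 ± 0.12, adjusted p = 0.037), a call lost in 11 of 16 alternative fits, as that of Dpy30 at D10 was in 10. 

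Germline and meiosis genes, the class that PRC1.6 is known to silence, held the largest called rises of the 7 lists beside the members. The cell type markers are not among those lists. Of 36 listed genes 35 were tested, and 6 rose and 1 fell at D3, where 7.92% of all tested genes rose and 5.1% fell. At D10 10 rose and 1 fell, where 9.27% rose and 7.65% fell, and over 4 against 4 libraries 11 rose and 5 fell, where 15.3% rose and 13.4% fell. The median log2 fold change of the list was -0.07 at D3 and 0.43 at D10, against 0.00 and 0.03 for all tested genes and -0.18 and -0.22 for the 9 PRC1.6 genes. At D8 against D1, the controls of the 2 exposures, the median of the germline list was -0.45, against 0.00 for all tested genes. Sycp1, of the synaptonemal complex, had 14.6 and 13.3 CPM at D3 against 5.12 and 4.44 CPM at D1, and 10.8 and 8.87 CPM at D10 against 3.17 and 2.06 CPM at D8. Its libraries did not overlap in either exposure (1.55 ± 0.26, adjusted p = 0.00764, and 1.91 ± 0.26, adjusted p = 0.00308). Mael, which acts in the silencing of transposons in germ cells, rose by 1.20 ± 0.30 and 1.73 ± 0.31, and Stk31, a testis kinase gene, by 1.68 ± 0.44 and 1.79 ± 0.44. Tdrd6 was called at D10 on 11 and 20 reads, against 3 and 4 reads at D8, and was not called at D3. Its D10 call was lost in 9 of 15 alternative fits. The counts depend on single libraries. Fewer germline genes rose when any 1 library of the compared groups was left out. Calls over all tested genes also dropped in those fits, except at D10 without D8 replicate 1. After the correction for GC content and length, 4 rose and 7 fell at D3, where 1815 of 19173 tested genes rose and 2685 fell. At D10 7 rose and 7 fell with it, where 1895 rose and 2954 fell. With the correction from genes of at least 10 CPM, chosen after seeing the data, 5 rose and 4 fell at D3. At D10 10 rose and 6 fell with that one. Of all tested genes it had 2117 higher and 1341 lower at D3, and 2303 higher and 1549 lower at D10.

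Promoters of Sycp1 (chr3:102936051-102936350, minus strand), Mael (chr1:166238695-166238994, minus strand) and Stk31 (chr6:49395289-49395588, plus strand), from the same RefSeq table, are shown because these genes rose in both exposures and carry the E-box that MGA and MAX bind, in capitals. The element begins at position -94 from the start site in Sycp1, -223 in Mael and -55 in Stk31.

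Sycp1: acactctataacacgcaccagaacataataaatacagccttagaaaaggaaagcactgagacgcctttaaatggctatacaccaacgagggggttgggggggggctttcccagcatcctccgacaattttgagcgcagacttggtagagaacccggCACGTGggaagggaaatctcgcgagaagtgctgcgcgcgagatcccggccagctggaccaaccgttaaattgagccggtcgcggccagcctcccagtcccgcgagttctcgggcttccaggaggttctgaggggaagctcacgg

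Mael: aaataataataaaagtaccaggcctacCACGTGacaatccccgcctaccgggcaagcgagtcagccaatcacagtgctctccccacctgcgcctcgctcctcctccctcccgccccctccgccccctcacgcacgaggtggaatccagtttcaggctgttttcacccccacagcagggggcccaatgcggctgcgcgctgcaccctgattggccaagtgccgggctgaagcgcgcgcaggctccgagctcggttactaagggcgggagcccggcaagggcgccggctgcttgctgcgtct

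Stk31: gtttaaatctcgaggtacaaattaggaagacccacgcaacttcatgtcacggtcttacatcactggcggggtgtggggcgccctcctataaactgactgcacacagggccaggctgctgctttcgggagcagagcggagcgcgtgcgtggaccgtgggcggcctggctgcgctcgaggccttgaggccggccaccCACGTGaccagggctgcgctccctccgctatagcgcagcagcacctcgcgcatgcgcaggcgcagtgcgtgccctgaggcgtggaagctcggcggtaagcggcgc

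Of 30 listed germline genes with a promoter in the table, 14 (46.7%) held CACGTG, against 8.09% of all 27025 gene symbols, and 10 held the E2F motif GCGGGAA on either strand, against 5.29%. Among the 10 that rose in either exposure and had a promoter, 8 held CACGTG and 2 held the E2F motif, and among the other 20 these numbers were 6 and 8. The split by rise was made on these data and was not tested. The list was made of genes known as targets of the complex, so the share is a description of the list. Not all carriers of CACGTG rose. Beside the 8 that did, Ddx4, Mov10l1, Stag3 and Pld6 were lower in all 4 ML-792 libraries than in all 4 controls. Mov10l1 had 18.4 to 25.1 CPM with ML-792 against 28.7 to 42.9 CPM, and Stag3 86.9 to 107.1 CPM against 115 to 121.9 CPM. Of all tested genes 14.9% were lower in this way.

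**Figure D5:**
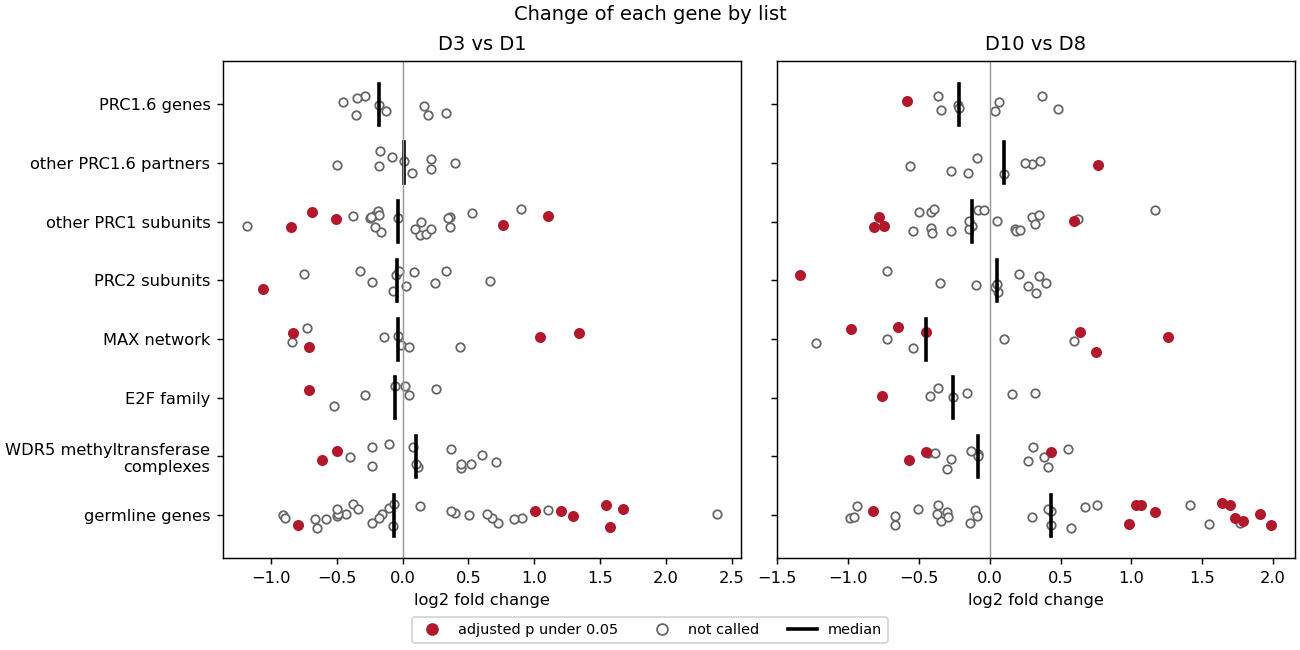
Log2 fold change of every tested gene (x axis) in the PRC1.6 genes and the 7 lists beside them, D3 vs D1 on the left and D10 vs D8 on the right, with filled points at an adjusted p under 0.05 and a bar at the median. The PRC1.6 genes lie within a log2 change of 0.58 in size. Called germline genes reach 1.99 at D10 for Tdrd6, which had only 3 to 20 reads per library, and 1.91 for Sycp1.

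The genes most like the called members over the 8 libraries, by Pearson correlation of log2 CPM, were Cenpu (r = 0.985) and Exosc8 (r = 0.985) for Pcgf6, and Rpap1 (r = 0.991) and Ndufb4 (r = 0.984) for Wdr5. These are the highest of many correlations over libraries that share treatment, depth and GC trend.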

How the data were processed

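RNA from 8 libraries of R1 mouse embryonic stem cells was sequenced. The authors deposited raw counts, read totals for each Ensembl gene that were not normalized. Per the submitters' processing notes, bcl2fastq 2.17.1.14, STAR 2.5.0a and featureCounts were used with mm10. Annotation release and strand setting were not given in the sources used here. Per the labels the molecule is polyA RNA, while the extraction protocol is for ribosomal RNA-depleted, stranded libraries of total RNA. Fragment sampling by GC content can move counts of AT-rich genes between libraries.

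From these counts, genes were kept by filterByExpr of edgeR 4.0.16 (R 4.3.3), which left 19173. Levels are TMM-scaled CPM, and RPKM divides by the merged exonic length. The contrasts D3 against D1, D10 against D8, D8 against D1 and the difference of responses came from 1 quasi-likelihood fit of 4 groups (residual degrees of freedom 4, biological coefficient of variation 19.6%). The 4 ML-792 and 4 control libraries were compared in a fit with treatment only. Tests were two-sided, and Benjamini-Hochberg adjustment ran over 19173 genes, with genes called under 0.05. Reads carry no molecular identifiers, and SEs hold the spread between libraries.

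Named genes were the 9 members, the partner genes, up to 4 called genes with the largest change from each other list, and the 2 genes most correlated with each called member among those of at least 1 CPM. Among germline genes Tdrd6, Sycp1, Stk31 and Mael were those 4. Ddx4, Mov10l1, Stag3 and Pld6 were named besides, as carriers of CACGTG that were lower in all 4 ML-792 libraries than in all 4 controls. The members, the lists and the tests were chosen with earlier results of these data known. Alternatives were size factors by RLE, DESeq2 1.42.0, no filter and a stricter filter (1 CPM in 2 libraries), the replicate number as a block, corrections for GC content and length by splines of 5 degrees of freedom, the pooled contrast of the 4-group fit, and leaving out each library. The procedure was tested on simulated data.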

Additional observations from a re-analysis of the deposited data

How the results depend on the processing

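Each member had at least 222 reads per library, and the SEs of a 2-library comparison were widest for Mga, Rnf2 and Rybp. Where a library was left out, the lone library of its group was assumed to vary like the others. Wdr5 kept its direction and its call over 4 against 4 libraries in all 17 alternatives, and Pcgf6 kept its direction there in all 17. For results that moved, the cause was not tested.

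Members called at D3 against D1 numbered 1 with no filter on low counts (3847 genes called, against 2496) and 1 with the replicate number as a block (4187 genes). They numbered 4 with the GC and length correction (4500) and 5 with the block and that correction (6394). With the correction from well measured genes, chosen after seeing the data, 2 were called (3458 genes). Members called at D10 against D8 numbered 2 with the block (5298 genes, against 3244), 4 with the correction (4849) and 4 with block and correction (6558). With the correction from well measured genes they numbered 3 (3852 genes). Over 4 against 4 libraries they numbered 1 with no filter (16.6% of all genes called) and 4 with the block (32.5%), against 2 (28.7%). They numbered 4 with the correction (39.2%), 4 with both (42%) and 5 with the correction from well measured genes (32.7%). In the contrast of the 4-group fit 1 was called (30.4%). At D8 against D1, genes called numbered 429 with DESeq2, 973 with no filter, 535 with the block, 78 with the correction, 650 with both and 95 with the correction from well measured genes, against 34. For the difference of responses they were 3 with DESeq2 and 66 with no filter, against 0. The GC and length correction put the higher share of calls at 40.3%, against 60.8%, for D3, at 39.1%, against 54.8%, for D10, and at 37.3%, against 53.2%, over 4 against 4.

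Leaving out 1 library gave 387 to 3238 genes and 0 to 0 members at D3 against D1, 1420 to 4304 genes and 0 to 3 members at D10 against D8, 0 to 436 genes and 0 to 0 members at D8 against D1, 0 to 0 genes and 0 to 0 members for the difference of responses, and 4150 to 5781 genes and 1 to 3 members over 4 against 4. At D3 the counts of genes were 699 and 387 without D1 replicates 1 and 2 and 626 and 1151 without D3 replicates 1 and 2. At D10 they were 1818 without D8 replicate 2 and 1420 and 2032 without D10 replicates 1 and 2, and the 3 members, Rybp higher and L3mbtl2 and Wdr5 lower, were called without D8 replicate 1. At D8 against D1, 0 genes were called by edgeR without D1 replicate 1 (973 at an unadjusted p under 0.05), D1 replicate 2 (2259) or D8 replicate 2 (1374), 436 without D8 replicate 1, and 20 and 19 without D10 replicates 1 and 2.

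Values that turned direction were, on the log2 scale and none called unless stated, as follows. At D3 against D1 Yaf2 was -0.052 with the correction and -0.048 with block and correction. At D10 against D8 Max was -0.035 with the correction and -0.042 with block and correction, and ran from -0.067 (without D10 replicate 1) to 0.11 (without D10 replicate 2) when 1 library was left out. Rnf2 was -0.43 with the correction and -0.43 with block and correction, both called, and -0.26 with the correction from well measured genes, and ran from -0.34 (without D8 replicate 2) to 0.55 (without D8 replicate 1). Mga ran from -0.67 (without D8 replicate 2) to 0.34 (without D8 replicate 1). At D8 against D1 L3mbtl2 was -0.15 with the correction, -0.15 with block and correction and -0.14 with the correction from well measured genes, and ran from -0.097 to 0.25 when 1 library was left out. Wdr5 was -0.068, -0.065 and -0.074 in the same 3 corrected fits and ran from -0.10 to 0.18. E2f6 ran from -0.15 to 0.035, Mga from -0.74 to 0.24, and Rybp from -0.55 to 0.16, with 0.0003 with the correction from well measured genes. In the difference of responses Mga ran from -0.19 to 0.80, Rybp from -0.17 to 0.56 and Rnf2 from -0.14 to 0.73, each lowest without D8 replicate 2 and highest without D8 replicate 1. Over 4 against 4, Ring1 was 0.10 with the correction, 0.10 with block and correction and 0.15 with the correction from well measured genes, and Rnf2 ran from -0.27 (without D8 replicate 2) to 0.012 (without D1 replicate 1).

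The labels number the replicates but do not say that a number marks a shared culture. Deviations from the group means correlated at 0.101 to 0.498 between same-numbered libraries over the 6 pairs of groups, and with 2 numbers this does not establish a pairing. With the block, Rybp and Wdr5 were called at D10, Wdr5 at D3, and Rybp, E2f6, Pcgf6 and Wdr5 over 4 against 4.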
